A study of Rattus norvegicus with 12 samples.

Results

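Ion pumps, exchangers and chloride transporters were followed in rat hippocampal cultures subjected to oxygen-glucose deprivation (OGD), which models ischemia in culture. Members were all genes whose rat symbols begin with Atp1a, Atp1b, Atp2a, Atp2b, Slc4a, Slc8a, Slc9a, Slc12a or Clcn and that a probe's accession named, with the probe of highest mean log2 signal standing for the gene. This gave 50 genes among the 15154 named genes on the array. RefSeq lists 57 symbols with these stems, and Slc12a1, Slc4a1ap, Slc9a4, Slc9a7, Slc9a9 and Atp1b3-ps2 were among those not analysed here. The 50 genes were covered by 70 probes, and 19 of them had more than 1 probe.

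The cultures came from Wistar rat embryos, for which the labels give stage E18, and were labelled as primary hippocampal neurons. The OGD groups spent 2 h in saline without glucose, with sucrose in its place, in an anaerobic chamber. The Ctrl groups spent the same period in saline with glucose in an air/CO2 incubator. All cultures were then returned to conditioned medium and RNA was collected after 7 h or 24 h of recovery, from 3 independent cultures in each of the 4 groups (Ctrl 7h, OGD 7h, Ctrl 24h, OGD 24h). Each of the 6 slides carried 1 control and 1 OGD array of the same recovery time and replicate number, so that every OGD effect could also be read within a slide.

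Cells keep steep ion gradients across their membranes at the expense of ATP. The Na,K-ATPase (alpha subunits Atp1a, beta subunits Atp1b) exports sodium and imports potassium, and it is the main consumer of ATP in neurons. The calcium pumps of the endoplasmic reticulum (SERCA, Atp2a) and of the plasma membrane (PMCA, Atp2b), together with the sodium/calcium exchangers (NCX, Slc8a), lower cytosolic calcium after it has entered. The sodium/proton exchangers (Slc9a) and bicarbonate transporters (Slc4a) set pH, and the cation-chloride cotransporters (Slc12a) set intracellular chloride, on which the inhibitory action of GABA depends. When ATP is exhausted in ischemia the gradients run down, calcium accumulates and cells swell.

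The median spot intensity was 447 to 660 on the Ctrl 7h arrays, 234 to 426 on the OGD 7h arrays and 402 to 477 on the Ctrl 24h arrays. It was 131 on OGD 24h replicate 1, 374 on replicate 2 and 546 on replicate 3. OGD 24h replicate 1 was thus the dimmest array of the series. Many estimates for 24 h that it moved are also given without it, though not all. A value for 24 h shown only with this array may therefore depend on it too. Values are log2 intensities after subtraction of each array's median, so 0 is the median probe of that array. Of the 50 genes, 42 were well above background on all 12 arrays. Atp1a4, Atp1b4 and Slc4a9 were not well above background on any array, so these genes have no fold change here.

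The labelled cell type was checked against marker genes. Of 14 neuronal markers 13 had a probe, and all 13 were well above background on every array. All 9 measured astrocyte markers were as well, so astrocyte transcripts were present in every sample. The summed linear level of the neuronal markers, in multiples of the array median, was 713 to 1030 on the Ctrl 24h arrays. On the OGD 24h arrays it was 332 for replicate 1, 667 for replicate 2 and 719 for replicate 3. The median log2 fold change of these markers after OGD was -0.49 at 7 h, with 2 of 13 called lower, and -0.87 at 24 h, with 5 of 13 called lower. For this and the other cell types, the medians and calls at 24 h include OGD 24h replicate 1 and are not given without it. The neuronal sum of OGD 24h replicate 3 (719) lay within the range of the Ctrl 24h arrays. Calls here use the rule given below, an unadjusted p under 0.05 with a fold change of at least 2. For scale, this rule took in 2.07% of all named genes as lower at 7 h, against 2.38% at 24 h. For higher signal the shares were 1.56% and 2.74%. The marker counts were not tested against these shares. None of the 9 astrocyte markers was called at either time, and their median was 0.13 at 7 h and -0.12 at 24 h. Their summed level was 929, 1060 and 997 on the Ctrl 7h arrays and 1470, 1150 and 1280 on the OGD 7h arrays, higher on every OGD array than on every control, and it overlapped at 24 h (980 to 1170 against 921 to 1230). The 10 markers of vascular cells and fibroblasts had a median of 0.27 at 7 h and 0.84 at 24 h, with 2 called higher at 24 h, and their summed level was 43.5 to 168 on the Ctrl 24h arrays against 159 to 286 on the OGD 24h arrays. The 10 microglial markers had medians of 0.33 and 0.26, with 1 called higher at 7 h, and Ptprc was not well above background in any group. The 10 markers of the oligodendrocyte lineage had medians of -0.15 and 0.07, with 1 called lower at 7 h. In RNA from whole cultures, fewer cells of a type and less RNA per cell cannot be told apart. The part of these shifts in the results below was not tested.

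Short windows around a transcript start are shown for 4 genes that stood apart from a close relative in the arrays. The chloride extruders Slc12a5 and Slc12a7 had estimates of opposite sign at 24 h. The brightest probes of the exchangers Slc8a1 and Slc8a3 gave their lower estimates at different times. The sequences are from RefSeq (build GRCr8), run 5′ to 3′ on the gene's strand from 250 bases before to 50 bases after a transcript start, and were found for 38 of the 50 genes. Capitals mark matches on either strand to ACGTG (the core of hypoxia-response elements), GGGCGG (the GC box) and CCAAT (the CCAAT box); neighbouring matches may overlap.
Slc12a5, chr3:174115583-174115882, + strand: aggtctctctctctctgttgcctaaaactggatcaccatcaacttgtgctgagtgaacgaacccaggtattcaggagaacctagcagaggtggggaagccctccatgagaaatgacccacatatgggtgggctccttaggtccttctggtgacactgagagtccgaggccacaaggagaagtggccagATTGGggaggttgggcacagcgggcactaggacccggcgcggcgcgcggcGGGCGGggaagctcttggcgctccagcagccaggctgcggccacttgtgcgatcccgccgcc
Slc12a7, chr1:31354576-31354875, - strand: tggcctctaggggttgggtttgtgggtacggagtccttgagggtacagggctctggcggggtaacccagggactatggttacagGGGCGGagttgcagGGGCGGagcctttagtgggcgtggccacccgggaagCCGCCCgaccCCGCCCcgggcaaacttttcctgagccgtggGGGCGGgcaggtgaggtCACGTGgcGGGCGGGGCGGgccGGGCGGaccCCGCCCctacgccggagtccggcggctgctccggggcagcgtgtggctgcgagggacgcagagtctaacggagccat
Slc8a1, chr6:19023309-19023608, + strand: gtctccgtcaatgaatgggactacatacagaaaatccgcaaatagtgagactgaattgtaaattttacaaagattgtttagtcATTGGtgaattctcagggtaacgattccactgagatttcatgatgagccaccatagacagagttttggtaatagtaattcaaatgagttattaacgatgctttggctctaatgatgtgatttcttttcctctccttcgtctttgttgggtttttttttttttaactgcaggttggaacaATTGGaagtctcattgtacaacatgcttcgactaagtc
Slc8a3, chr6:106738456-106738755, - strand: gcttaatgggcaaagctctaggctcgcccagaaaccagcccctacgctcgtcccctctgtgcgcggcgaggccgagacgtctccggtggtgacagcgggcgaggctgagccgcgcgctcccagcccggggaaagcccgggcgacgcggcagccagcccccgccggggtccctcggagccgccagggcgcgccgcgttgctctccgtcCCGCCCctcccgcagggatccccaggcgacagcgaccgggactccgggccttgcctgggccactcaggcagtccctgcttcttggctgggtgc
The Slc12a7 window held 9 GC boxes and a CACGTG that reads as ACGTG on both strands. The Slc12a5 window held 1 GC box and 1 CCAAT box, the Slc8a1 window 2 CCAAT boxes and the Slc8a3 window 1 GC box. Among all 33469 such windows of the reference, 19.3% held ACGTG, 33.1% held GGGCGG and 37.5% held CCAAT. The 38 members had 41 windows, and 9 members held ACGTG, 19 held GGGCGG and 20 held CCAAT in at least 1 window. The percentages are per window and the member counts per gene, so they are not compared. These matches describe letters in a window and were not set against binding data. The windows of Slc8a1 and Slc12a7 lie well inside the listed gene spans (chr6:18975498-19299704 and chr1:31301243-31382825). They therefore need not be the main promoter of the gene. The Slc8a3 window also lies inside its span, near the end at 106739208.

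The OGD effect at each time was estimated with limma in 1 model over the 4 groups. A gene was called when its unadjusted p was under 0.05 and its fold change was at least 2, the thresholds of the study's methods. The p here is that of limma, whereas the study used Student's t-test of OGD against its control. With the methods' t-test, 0 members were called lower at 7 h and 0 at 24 h, and 3 were called higher at 24 h. No gene on the array passed Benjamini-Hochberg adjustment at 0.05. The lowest adjusted p over all probes was 0.117 at 7 h and 0.209 at 24 h, and among the members it was 0.196 and 0.254. Adjusted p-values below are from this fit over all probes, and where an unadjusted p was under 0.05 this is said beside them. Each limma p measures the spread between 3 independent cultures per group.

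At 7 h, no member was called higher and 1 was called lower (Atp2a1). The share called over all named genes was 1.56% higher and 2.07% lower. With the p alone, 1 member was higher (Slc4a7), against 3.89% of all genes, and 6 were lower (among them Atp2a1, Atp2a3, Slc8a3, Slc4a10 and Clcn7), against 8.06%. Neither count was read as a result about the members. The median log2 fold change was 0.02 over the members and -0.11 over all named genes.

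At 24 h, 3 members were called higher and 4 lower, against 2.74% and 2.38% of all named genes. The 3 higher were Slc12a7 and the undetected Atp1a4 and Atp1b4, which leaves 1 gene with measurable signal. Among the 4 lower were Atp2a1, Slc8a2 and Slc12a5. With the p alone, 5 members were higher, against 6.36%, and 7 were lower, against 6.9%. The additional genes were Atp2b4 and Slc4a1 among the higher, and Atp2b3, Slc8a1 and Clcn7 among the lower. The median over the members was -0.30, with 33 of 50 estimates below 0, and over all named genes it was -0.03. Without OGD 24h replicate 1, no member was called lower, the undetected Atp1b4 was the 1 member called higher, and the median was -0.13. Slc12a7 was then short of a 2-fold change. Within slides the median difference between OGD and control at 24 h was -0.74 for replicate 1, -0.16 for replicate 2 and 0.15 for replicate 3.

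**Figure D1:**
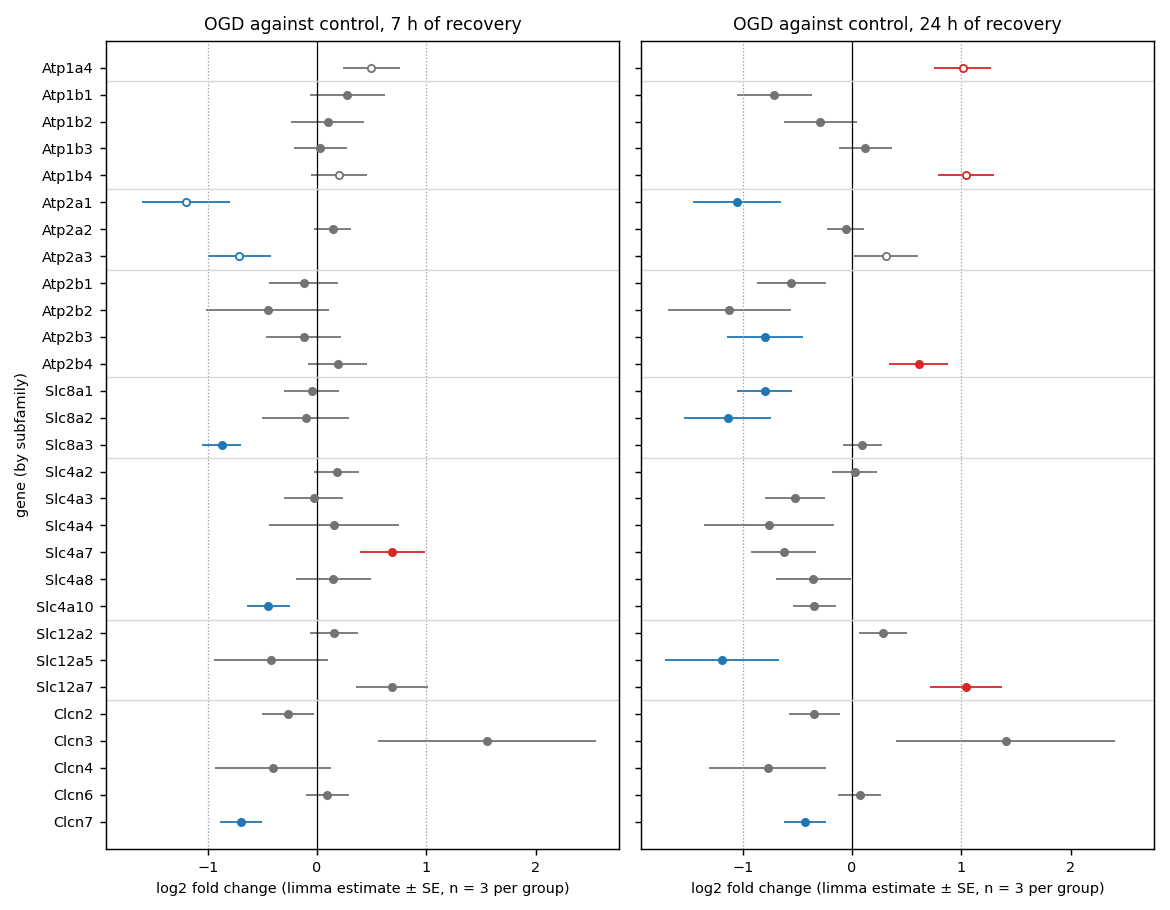
Log2 fold change of 29 members described by name, OGD against control, at 7 h (left) and 24 h (right) of recovery; points are limma estimates and bars their standard errors, with 3 arrays per group. Red and blue mark an unadjusted p under 0.05 in the higher and lower direction, open points mark genes not well above background on any array of at least 1 of the 2 groups, dotted lines mark a fold of 2, and horizontal lines part the subfamilies. At 24 h 18 of the 29 points lie below 0.

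The beta subunits Atp1b1, Atp1b2 and Atp1b3, which carry the alpha subunit of the Na,K-ATPase to the membrane, gave no call. Atp1b1 was the brightest member of the whole set and was saturated on 9 of the 12 arrays, so its estimates of 0.28 at 7 h and -0.71 at 24 h (adjusted p = 0.39) may be compressed. The estimate at 24 h was -0.25 without OGD 24h replicate 1. Its OGD 24h values were 6.90, 8.25 and 8.35, against 8.71, 8.42 and 8.50 on the control arrays. Replicate 1 alone lay more than 1 log2 unit below its control. Atp1b2, the subunit of glia, had intervals of -0.64 to 0.84 and -1.03 to 0.45, and its estimate at 24 h went from -0.29 to 0.19 without OGD 24h replicate 1. Atp1b3 had intervals of -0.51 to 0.57 and -0.42 to 0.66. Atp1a4, an alpha subunit known from sperm, read -5.88 to -6.64 on the Ctrl 24h arrays and -5.19 to -5.64 on the OGD 24h arrays. Atp1b4 read -6.04 to -6.61 and -4.97 to -5.78. Both probes were called higher at 24 h, but neither was well above background on any array.

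Of the calcium pumps of the endoplasmic reticulum, Atp2a2, the isoform of most cells including neurons, stayed closest to 0. It read 6.91, 6.72 and 6.83 on the Ctrl 7h arrays against 6.89, 7.07 and 6.92 after OGD, and 7.19, 6.98 and 6.87 on the Ctrl 24h arrays against 6.78, 6.94 and 7.13. The estimates were 0.14 (95% interval -0.23 to 0.51) and -0.06 (-0.43 to 0.31), so that a change of 2-fold lay outside both intervals. A second Atp2a2 probe gave -0.47 (adjusted p = 0.628) and -0.77 (adjusted p = 0.387), the latter -0.31 without OGD 24h replicate 1.

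Atp2a1, the SERCA isoform of fast skeletal muscle, was the only member called at both times. It read -3.04, -3.32 and -3.07 on the Ctrl 7h arrays and -4.42, -3.53 and -5.09 on the OGD 7h arrays. It was not well above background on any OGD 7h array. With the OGD readings raised to a floor, the mean was 1.36-fold lower than that of controls. The fit without a floor had an unadjusted p under 0.05 (adjusted p = 0.314). The floor was the lowest signal of any probe that was well above background on that array, used where it exceeded the reading. It is not the detection limit of this probe, so the 1.36-fold is no strict minimum. The 7 h slide of replicate 2 differed by only -0.20. At 24 h it read -3.20, -3.88 and -3.60 in controls and -5.32, -4.13 and -4.40 after OGD, a log2 fold change of -1.06 (SE 0.40, unadjusted p under 0.05, adjusted p = 0.314). With the slide as a block the unadjusted p at 24 h was over 0.05, so this call was lost. Without OGD 24h replicate 1 the estimate was -0.70 (unadjusted p over 0.05), and without OGD 7h replicate 3 the estimate at 7 h was -0.83 (unadjusted p over 0.05). With normexp background correction the estimates were 0.56 and 0.29, so the direction for this dim probe depended on the background correction. Atp2a3 was well above background on 1 control and no OGD array at 7 h, which leaves it without a fold.

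The plasma membrane calcium pumps had a median of -0.12 at 7 h and -0.68 at 24 h. The latter was -0.27 without OGD 24h replicate 1. Atp2b3 read 4.52, 3.98 and 3.74 on the Ctrl 24h arrays and 2.49, 3.43 and 3.93 on the OGD 24h arrays. The groups overlapped, the fold change was -0.80 (SE 0.35, unadjusted p under 0.05, adjusted p = 0.352), and it was -0.40 (unadjusted p over 0.05) without OGD 24h replicate 1. A second probe of Atp2b3 gave -0.72 (unadjusted p under 0.05, adjusted p = 0.298), and -0.53 (unadjusted p over 0.05) without that array. Atp2b2, the fast PMCA of excitable cells, read 5.26, 4.83 and 4.65 against 2.17, 4.32 and 4.88. OGD 24h replicate 1 accounted for most of its estimate of -1.13 (adjusted p = 0.401), which was -0.31 (unadjusted p over 0.05) without it. Atp2b1, the most widely expressed PMCA, had an estimate of -0.56 (adjusted p = 0.445) at 24 h, which was -0.22 without OGD 24h replicate 1. Atp2b4 moved the other way. It read -2.38, -1.95 and -2.07 in controls and -1.38, -1.96 and -1.23 after OGD, an estimate of 0.61 (unadjusted p under 0.05, adjusted p = 0.358), and 0.54 (unadjusted p over 0.05) without OGD 24h replicate 1. Its dimmer second probe gave -0.03 (adjusted p = 1), and spike-in scaling gave -0.42, against a median of -1.05 over all genes.

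Of the sodium/calcium exchangers, the brightest probes of Slc8a1 and Slc8a2 had their lower estimate at 24 h and that of Slc8a3 had its lower estimate at 7 h. Slc8a1 (NCX1; chr6:18975498-19299704, GRCr8) read 1.54, 1.51 and 1.26 on the Ctrl 24h arrays and 0.07, 0.87 and 0.98 on the OGD 24h arrays. All 3 OGD arrays lay below all 3 controls. The log2 fold change was -0.80 (SE 0.25, unadjusted p under 0.05, adjusted p = 0.285) and -0.52 (unadjusted p under 0.05) without OGD 24h replicate 1. Its p stayed under 0.05 with any of the 12 arrays left out. A second Slc8a1 probe gave -1.01 (unadjusted p under 0.05, adjusted p = 0.254) and the third gave -0.45 (adjusted p = 0.422). At 7 h the 3 probes gave -0.05, -0.64 and -0.14. The second probe had an unadjusted p under 0.05 at 7 h too (adjusted p = 0.352), with 1.12, 1.40 and 1.12 on the control arrays and 0.22, 0.81 and 0.68 after OGD, so for Slc8a1 the probes differed on whether 7 h was already lower.

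Slc8a2 (NCX2; chr1:85944752-85982900), the exchanger isoform of brain, read 0.25, -0.12 and -0.06 in controls and -1.97, -0.34 and -1.03 after OGD at 24 h. There was no overlap, and the log2 fold change was -1.14 (SE 0.40, unadjusted p under 0.05, adjusted p = 0.298). It was -0.71 (unadjusted p over 0.05) without OGD 24h replicate 1. At 7 h the estimate was -0.11, with a 95% interval of -0.99 to 0.78.

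Slc8a3 (NCX3; chr6:106605611-106739208), which is expressed in brain and skeletal muscle, followed another course. It read -2.58, -2.18 and -2.26 on the Ctrl 7h arrays and -3.27, -3.04 and -3.33 on the OGD 7h arrays. The groups were fully separated and each slide showed the difference, by -0.68, -0.85 and -1.08. The log2 fold change of -0.87 (SE 0.18) had the lowest p among the members at 7 h (adjusted p = 0.196 by limma with Benjamini-Hochberg). At 24 h the values were -2.62, -2.44 and -2.44 in controls and -2.36, -2.60 and -2.25 after OGD, an estimate of 0.09 with a 95% interval of -0.30 to 0.49. The effect at 24 h minus that at 7 h was 0.97 (SE 0.25, unadjusted p under 0.05, adjusted p = 1). The probe was dim, being well above background on 2 of 3 OGD 7h arrays, and normexp background correction gave 0.43 (unadjusted p over 0.05) at 7 h. It kept its sign and its p under 0.05 when each of the 12 arrays was left out in turn.

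A difference between 2 genes on the same array is free of any constant subtracted from the array, though not of the background correction or the choice of probe. Slc8a3 minus Slc8a1 was -3.73, -3.36 and -3.03 on the Ctrl 7h arrays and -4.12, -4.25 and -4.23 on the OGD 7h arrays, a change of -0.83. On the Ctrl 24h arrays it was -4.16, -3.95 and -3.70 and on the OGD 24h arrays -2.43, -3.46 and -3.23, a change of 0.89. The exact permutation test (two-sided) gave p = 0.1 for each change, which is the smallest that 3 arrays against 3 can give. The genes of each pair shown had differing estimates on these same arrays. The permutation p-values are therefore descriptive and give no independent support. With normexp background correction the change at 7 h was 0.67, the opposite direction, and without OGD 24h replicate 1 the change at 24 h was 0.59.

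**Figure D2:**
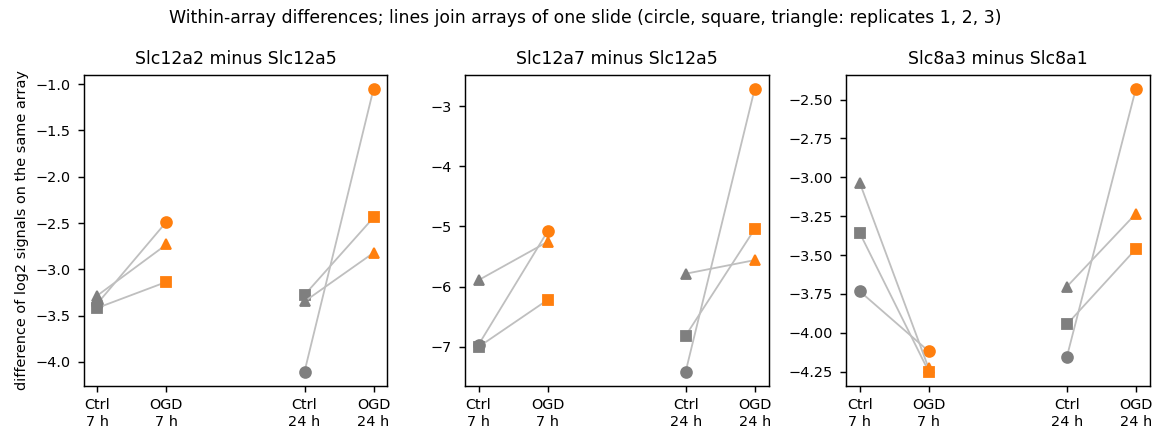
Difference of 2 genes' log2 signals on the same array (brightest probe of each), for 3 gene pairs in the 4 groups; gray points are control and orange points OGD arrays, and lines join the arrays of 1 slide. Slc12a2 minus Slc12a5 lies higher on every OGD array than on every control array of its time, whereas Slc8a3 minus Slc8a1 moves down at 7 h and up at 24 h.

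Chloride handling in neurons rests on the balance of Slc12a2 (NKCC1), which loads chloride, and Slc12a5 (KCC2), the neuronal potassium-chloride cotransporter that extrudes it. Slc12a5 (chr3:174115833-174155112) was the brightest of the Slc12a genes. It read 6.81, 6.31 and 6.13 on the Ctrl 24h arrays and 3.75, 5.68 and 6.23 on the OGD 24h arrays. The slides differed by -3.05, -0.63 and 0.11, and the groups overlapped. The log2 fold change of -1.19 (SE 0.52, unadjusted p under 0.05, adjusted p = 0.355) rested on OGD 24h replicate 1, since without it the estimate was -0.46 (unadjusted p over 0.05), and the p stayed under 0.05 in only 3 of 12 fits with an array left out. With the slide as a block the unadjusted p was over 0.05. At 7 h the values were 6.49, 6.25 and 6.05 in controls and 5.39, 6.15 and 5.99 after OGD (estimate -0.42, adjusted p = 0.78). A dimmer second probe gave 0.70 (adjusted p = 0.449) at 7 h and -0.55 (adjusted p = 0.474) at 24 h, the latter -0.83 (unadjusted p under 0.05) without OGD 24h replicate 1, so the probes had opposite signs at 7 h.

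Slc12a2 read 2.70, 3.03 and 2.78 on the Ctrl 24h arrays and 2.71, 3.24 and 3.41 on the OGD 24h arrays. Its 95% intervals were -0.33 to 0.64 at 7 h and -0.20 to 0.76 at 24 h, and a 2-fold change lay outside both. Without OGD 24h replicate 1 the estimate at 24 h went from 0.28 to 0.49 (unadjusted p under 0.05). Slc12a2 minus Slc12a5 was -3.37, -3.42 and -3.28 on the Ctrl 7h arrays and -2.49, -3.14 and -2.73 on the OGD 7h arrays. On the Ctrl 24h arrays it was -4.11, -3.28 and -3.35, and on the OGD 24h arrays it was -1.05, -2.44 and -2.82. For the brightest probes the relative signal of the loader to the extruder was higher on all 3 OGD arrays at both times, by 0.57 and 1.47, with an exact permutation p of 0.1 at each. With the mean over each gene's probes the change at 7 h was -0.085, the opposite direction, and that at 24 h was 1.16. The change at 24 h was 0.95 without OGD 24h replicate 1. Slc12a5 is expressed mainly in neurons. The summed neuronal markers were 607, 826 and 646 on the OGD 7h arrays against 776, 859 and 659 on the Ctrl 7h arrays. At 24 h they were 332, 667 and 719 after OGD against 1030, 851 and 713 in controls. Their part in these changes was not tested.

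Slc12a7 (KCC4; chr1:31301243-31382825), another potassium-chloride cotransporter, was the only detected member called higher. It read -0.60, -0.51 and 0.34 on the Ctrl 24h arrays and 1.05, 0.64 and 0.68 on the OGD 24h arrays. Every OGD array was above every control array, and the slides differed by 1.65, 1.14 and 0.33. The log2 fold change was 1.04 (SE 0.33, unadjusted p under 0.05, adjusted p = 0.285), and it was 0.91 (unadjusted p under 0.05) without OGD 24h replicate 1. At 7 h the slides differed by 0.79, 0.69 and 0.58, with an estimate of 0.68 (adjusted p = 0.446). A second probe gave 0.33 (adjusted p = 0.638) and 0.55 (adjusted p = 0.395), the latter 0.32 without OGD 24h replicate 1. With each array left out in turn the estimate at 24 h ran from 0.87 to 1.34. Spike-in scaling, which set the median of all genes at -0.91 at 7 h and -1.05 at 24 h, gave -0.12 and 0.02, still above those medians. Slc12a7 minus Slc12a5 changed by 1.1 at 7 h (exact permutation p = 0.2) and by 2.23 at 24 h (exact permutation p = 0.1). This pair sets the detected member called higher at 24 h against a member called lower on the same arrays, so these p-values are descriptive only. With the mean over each gene's probes the changes were 0.37 and 1.67, and without OGD 24h replicate 1 that at 24 h was 1.37.

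The other 5 Slc12a genes had no p under 0.05 and estimates between -0.75 and 0.56.

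**Figure D3:**
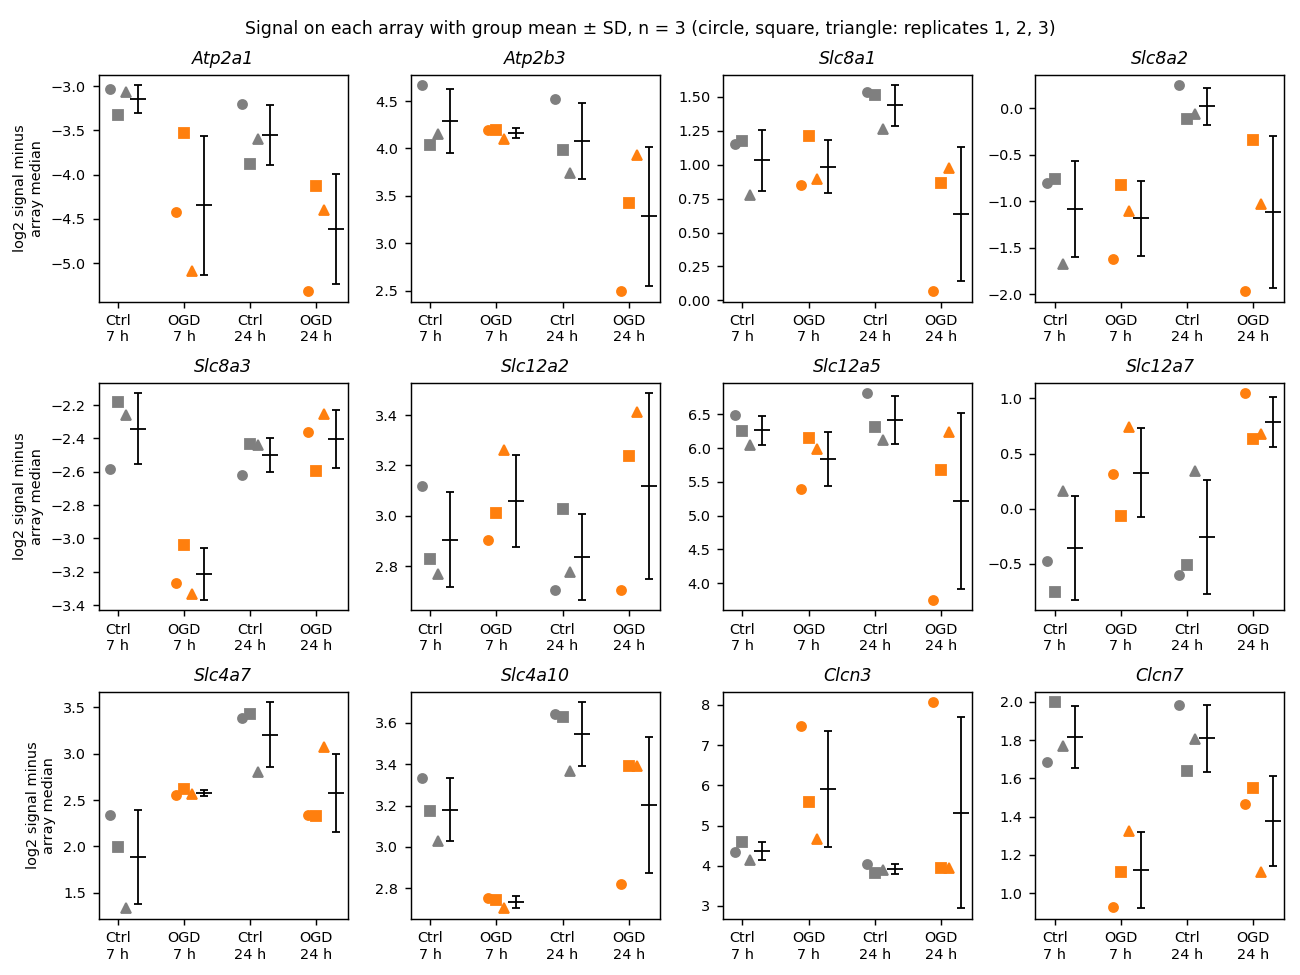
Log2 signal minus the array median of 12 members on each of the 12 arrays; gray points are control and orange points OGD arrays, marker shapes give the replicate, and bars give the group mean ± SD of 3 arrays. The OGD 24h point of replicate 1 is the lowest of the group for Slc12a5 and Slc8a2, and Slc8a3 is lower in OGD at 7 h with no difference of means at 24 h beyond the SD.

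The sodium/proton exchangers gave no p under 0.05 at either time. The estimates of all 5 Slc9a genes ranged from -0.66 to 0.42 at 7 h and from -1.33 to 0.69 at 24 h, or from -0.60 to 0.24 without OGD 24h replicate 1.

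Of the 10 bicarbonate transporters, Slc4a7 (NBCn1; chr15:13015854-13095485), which brings in sodium and bicarbonate, had estimates of opposite sign at the 2 times. It read 2.33, 1.99 and 1.33 on the Ctrl 7h arrays and 2.55, 2.62 and 2.57 on the OGD 7h arrays, with every OGD array above every control. At 24 h it read 3.39, 3.43 and 2.80 in controls and 2.34, 2.33 and 3.07 after OGD, with overlap. The estimates were 0.69 (SE 0.30, unadjusted p under 0.05, adjusted p = 0.407) and -0.62 (SE 0.30, adjusted p = 0.386). Their difference was -1.31 (SE 0.42, unadjusted p under 0.05, adjusted p = 1). The estimate at 7 h was 0.41 (unadjusted p over 0.05) without Ctrl 7h replicate 3, it was -0.12 with spike-in scaling against a median of -0.91 over all genes, and its p stayed under 0.05 in 5 of 12 fits with an array left out.

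Slc4a10 (NCBE), a neuronal sodium-dependent bicarbonate transporter, read 3.33, 3.17 and 3.03 on the Ctrl 7h arrays and 2.75, 2.74 and 2.70 on the OGD 7h arrays. The groups did not overlap, and the difference, whose p stayed under 0.05 in 4 of 12 fits with an array left out, was -0.45 (SE 0.20, unadjusted p under 0.05, adjusted p = 0.412). Its second probe gave 0.09 (adjusted p = 0.908) at 7 h and -0.86 (unadjusted p under 0.05, adjusted p = 0.294) at 24 h, so the probes placed the lower signal at different times. Slc4a4 (NBCe1), which is abundant in astrocytes, spread widely at 24 h. Its OGD values were 2.05, 3.84 and 5.27 around control values of 4.36, 4.59 and 4.49, so 1 array lay above and the other two below all controls (95% interval -2.08 to 0.56), and the estimate went from -0.76 to 0.07 without OGD 24h replicate 1. The anion exchanger Slc4a2, the brightest of this subfamily, had intervals of -0.28 to 0.63 and -0.43 to 0.48. Slc4a3 had an estimate of -0.52 (adjusted p = 0.42) and Slc4a8 one of -0.35 (adjusted p = 0.648) at 24 h. These were, without OGD 24h replicate 1, -0.17 for Slc4a3 and -0.75 (unadjusted p under 0.05) for Slc4a8. The erythroid anion exchanger Slc4a1, which was dim, had an estimate of 0.50 (unadjusted p under 0.05, adjusted p = 0.331) at 24 h, and 0.32 (unadjusted p over 0.05) without OGD 24h replicate 1.

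Among the CLC proteins, which comprise chloride channels of the cell surface and chloride/proton exchangers of endosomes and lysosomes, Clcn7 was lower at both times. Clcn7 (chr10:14656261-14681632), the exchanger of lysosomes, read 1.68, 2.0 and 1.77 on the Ctrl 7h arrays and 0.92, 1.11 and 1.32 on the OGD 7h arrays. At 24 h it read 1.98, 1.64 and 1.81 against 1.47, 1.55 and 1.11. Neither pair of groups overlapped, and all 6 slides had the lower value in OGD. The estimates were -0.70 (SE 0.19, unadjusted p under 0.05, adjusted p = 0.27) and -0.43 (SE 0.19, unadjusted p under 0.05, adjusted p = 0.362), each short of a 2-fold change. Leaving out OGD 24h replicate 1 gave -0.48 (unadjusted p under 0.05) at 24 h. With each array left out in turn the p stayed under 0.05 in all 12 fits at 7 h and in 3 of 12 at 24 h.

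Clcn3, the brightest member of the subfamily, had the highest estimates of all members and the widest error. Clcn3 (chr16:34138004-34210984) read 4.34, 4.59 and 4.14 on the Ctrl 7h arrays and 7.49, 5.57 and 4.67 on the OGD 7h arrays. At 24 h it read 4.05, 3.81 and 3.89 against 8.07, 3.96 and 3.94. The 2 OGD arrays of replicate 1 stood 3.15 and 4.02 above their controls, while the other two 24 h slides differed by 0.15 and 0.04. The estimates of 1.55 (SE 1.0, adjusted p = 0.547) and 1.40 (SE 1.0, adjusted p = 0.535) did not pass the test. Without OGD 24h replicate 1 the estimate at 24 h was 0.03, and that at 7 h, 1.55 as before, then had an unadjusted p under 0.05, since the 4 groups share 1 estimate of spread and this array no longer entered it. The second Clcn3 probe went the other way, with -0.74 (unadjusted p under 0.05, adjusted p = 0.413) and -0.43 (adjusted p = 0.556), and on the OGD arrays of replicate 1 it read 2.44 and 1.92, the lowest of its groups. The probes of Clcn3 thus disagreed in direction, and no direction is given for the gene. Clcn2, Clcn4 and Clcn6 had estimates between -0.77 and 0.09 with no p under 0.05, and Clcn4, the lowest of them at 24 h, was at 0.03 without OGD 24h replicate 1.

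**Figure D4:**
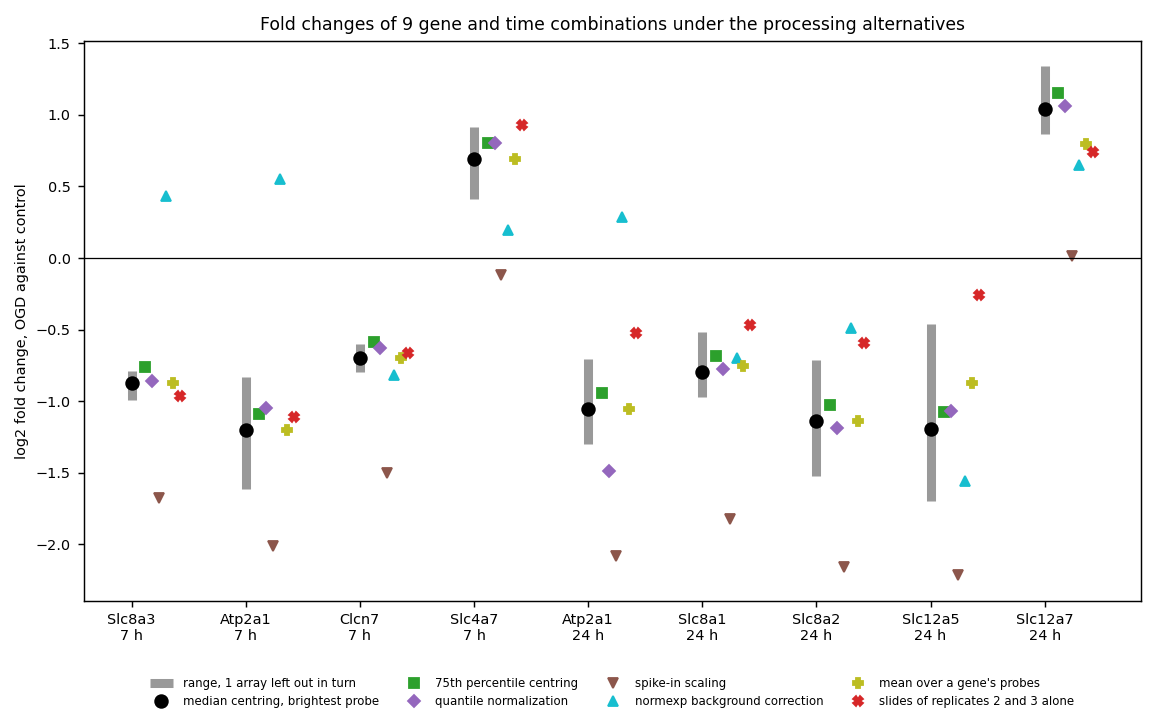
Log2 fold change, OGD against control, of 9 combinations of gene and recovery time under the values used in the text (black) and under alternatives; gray bars span the estimates with 1 array left out in turn. Slc12a5 at 24 h ranges from -1.19 to -0.26 between all slides and the slides of replicates 2 and 3 alone, whereas for the same comparison Clcn7 at 7 h goes from -0.70 to -0.67.

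The OGD effect differed between 24 h and 7 h with a p under 0.05 for 5 of the 50 members, against 3.42% of all named genes, and none passed adjustment. Slc8a3, Slc4a7 and Slc9a5 were detected, and Atp1b4 and Atp2a3 were at or near background.

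Proteins that bind or regulate these transporters were taken as a further list, of which 30 of 35 genes had a probe. At 7 h none was called higher and 1 was called lower, against 1.56% and 2.07% of all named genes. At 24 h 1 was called higher and none lower, against 2.74% and 2.38%. These counts were not read as a result about the list. The median log2 fold change was -0.11 and -0.17, the latter -0.05 without OGD 24h replicate 1. Sln (sarcolipin), a small inhibitor of SERCA, read 0.29, 0.32 and -0.32 on the Ctrl 7h arrays and -1.26, -0.65 and -0.86 on the OGD 7h arrays, a difference of -1.02 (SE 0.31, unadjusted p under 0.05, adjusted p = 0.276) without overlap. At 24 h it differed by -0.76 (unadjusted p under 0.05, adjusted p = 0.329), and by -0.48 (unadjusted p over 0.05) without OGD 24h replicate 1. Pln (phospholamban), the other SERCA inhibitor of the list, differed by -0.59 (unadjusted p under 0.05, adjusted p = 0.377) at 7 h and -0.14 at 24 h. Bsg (basigin), a partner of the PMCA pumps and of monocarboxylate transporters, differed by -0.47 (unadjusted p under 0.05, adjusted p = 0.413) and -0.49 (unadjusted p under 0.05, adjusted p = 0.339), the latter -0.36 (unadjusted p over 0.05) without OGD 24h replicate 1. Wnk2, a kinase upstream of the cation-chloride cotransporters, read 1.76, 1.63 and 1.51 on the Ctrl 24h arrays and 0.31, 1.32 and 0.71 on the OGD 24h arrays (difference -0.85, unadjusted p under 0.05, adjusted p = 0.269).

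Fxyd5, a modulator of the Na,K-ATPase, was the partner called higher at 24 h. It read -4.47, -2.58 and -0.73 on the Ctrl 24h arrays and 0.28, -0.56 and 0.82 on the OGD 24h arrays, a difference of 2.77 (SE 1.01, unadjusted p under 0.05, adjusted p = 0.31). All 3 OGD arrays exceeded all controls, but the controls themselves spanned more than 3 log2 units. The markers of vascular cells and fibroblasts, whose sum on the controls was 43.5, 76.8 and 168 for replicates 1 to 3, had the same order as Fxyd5 on those arrays. So had the sums for astrocytes (980, 1100 and 1170) and the oligodendrocyte lineage (260, 354 and 358). Those for neurons (1030, 851 and 713) and microglia (20.7, 25.3 and 20.8) had not. An order of 3 arrays does not single out a cell type. The part of any cell type in the difference was not tested.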

How the data were processed

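RNA was hybridised to 12 Agilent rat arrays of 1 colour with 44254 spots each. The study's methods name independent cultures as the biological replicates. They do not state whether same-numbered samples of the 4 groups came from the same culture. The authors extracted intensities with Feature Extraction 10.5.1.1, and the deposited scanner files hold the background-subtracted processed intensity of each spot. The deposited log2 values of the authors differed from log2 processed intensity by 1 constant per array. Here log2 intensities, without outlier spots, were averaged per probe and centred on each array's median, after the median normalization in the study's methods. Named probes were 18004 of 30367, matched by accession to RefSeq (GRCr8), and 12363 stayed unnamed. limma 3.58.1 in R 4.3.3 fitted the 4 groups over all 30367 probes, with two-sided p and Benjamini-Hochberg adjustment, and had been tested on simulated data. The number of arrays limits the precision. Fold changes are on the log2 scale.

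The alternatives comprised quantile normalization, 75th percentile centring, scaling by spike-ins (1 of 10 spike-in kinds was usable), normexp with an offset of 50 on the median foreground signal (a mean signal was not used here), the authors' log2 values, dim probes left out, the methods' t-test, each time alone, the slide as block, the mean over probes and each array left out. Named genes were the members called, the brightest of each subfamily, members of known roles in brain and members listed by the study, and others appear by counts or, as Slc4a1, Slc9a5 and some second probes, after their values were seen. Some members enter the counts and medians but are not reported here by name. The members, gene lists and rules were chosen with earlier results of these data known. Scan times of OGD and control arrays of a slide differed by -211 min on 2 slides and -177 min on 1 (OGD minus control), and their part was not tested.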

Additional observations from a re-analysis of the deposited data

Results flagged for a closer look

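The OGD effect differed between the recovery times for 5 members, by the interaction term of the limma fit at an unadjusted p under 0.05 (adjusted p = 1 for each), where 519 of 15154 named genes had such a p. The differences, effect at 24 h minus effect at 7 h on the log2 scale, were 0.97 for Slc8a3, -1.31 for Slc4a7, -1.07 for Slc9a5, 1.02 for Atp2a3 and 0.85 for Atp1b4.

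Slc9a5, an exchanger of neurons, read 2.80, 2.40 and 2.05 on the Ctrl 7h arrays and 3.03, 2.99 and 2.52 on the OGD 7h arrays, and 3.02, 2.39 and 2.11 against 1.56, 1.80 and 2.22 at 24 h. Neither time alone gave a p under 0.05. Atp2a3 was well above background on 3 of the 12 arrays and Atp1b4 on none.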

How the results depend on the processing

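The counts of genes called and the medians moved with several choices. The median over the members at 7 h (0.02) was 0.13 with centring on the 75th percentile, which raised all genes by about 0.11, -0.79 with spike-in scaling and -0.31 with normexp; at 24 h (-0.30) it was -1.32 with spike-in scaling. Spike-in scaling set the median of all genes at -0.91 and -1.05, so the members lay above it at 7 h and below it at 24 h. The count called lower at 7 h (1) was 0 with quantile normalization, spike-in scaling, the methods' t-test and the slides of replicates 2 and 3 alone, and the count called higher at 7 h (0) was 2 with normexp. The count called higher at 24 h (3) was 1 with quantile normalization and with dim probes left out, and 0 with spike-in scaling and normexp. The count called lower at 24 h (4) was 2 with spike-in scaling and normexp, and 0 with the methods' t-test and the slides of replicates 2 and 3 alone. With the replicate block (slide) it was 2, with Atp2a1 and Slc12a5 no longer called, and Atp2b3, Atp2b4 and Clcn7 at 24 h and Atp2a3, Slc4a7 and Slc4a10 at 7 h then had an unadjusted p over 0.05. With 1 array left out in turn, the counts ranged from 0 to 1 higher and 0 to 1 lower at 7 h. At 24 h they ranged from 0 to 3 higher and 0 to 9 lower. The count called lower at 24 h was highest without OGD 24h replicate 3 and lowest without OGD 24h replicate 1. The cause of these moves was not tested.

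Same-numbered control and OGD arrays share a slide. Their deviations over all probes correlated with r of -0.05 to 0.11 at 7 h and -0.01 to 0.17 at 24 h, over 0.1 in 1 of 3 pairs at each time. The main fit therefore treated the samples as sharing only a number. A correlation over all probes cannot exclude that same-numbered samples share more than that. Fxyd5, for example, rose from replicate 1 to 3 on the controls of both times (-3.96, -2.63 and -0.45 at 7 h, -4.47, -2.58 and -0.73 at 24 h). Its unadjusted limma p at 24 h was 0.0198 in the main fit and 0.00373 with the slide as a block. The methods' t-test takes p under 0.05 without adjustment.

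Directions turned in the following cases, mostly of small estimates but also of Atp2a1, Slc8a3, Atp2a3 and Atp1a4, which are dim and were among the larger ones. With centring on the 75th percentile, Slc8a1 was 0.066, Slc8a2 0.0077 and Slc4a3 0.081 at 7 h, and Atp2a2 was 0.053 at 24 h. With quantile normalization, Atp1b1 was -0.21, Atp1b2 -0.10, Atp1b4 -0.029, Slc8a1 0.0092 and Slc4a3 0.068 at 7 h, and Atp2a3 was -0.073 and Slc8a3 -0.069 at 24 h. With spike-in scaling, Atp1a4 was -0.31, Atp1b1 -0.53, Atp1b2 -0.71, Atp1b3 -0.78, Atp1b4 -0.61, Atp2a2 -0.67, Atp2b4 -0.62, Slc4a2 -0.63, Slc4a4 -0.65, Slc4a7 -0.12, Slc4a8 -0.66, Slc12a2 -0.65, Slc12a7 -0.12 and Clcn6 -0.72 at 7 h, and Atp1a4 was -0.014, Atp1b3 -0.90, Atp2a3 -0.71, Atp2b4 -0.42, Slc8a3 -0.93, Slc4a2 -1.0, Slc12a2 -0.74 and Clcn6 -0.95 at 24 h. With normexp background correction, Atp1b1 was -0.35, Atp1b2 -0.52, Atp1b3 -0.52, Atp2a1 0.56, Atp2a2 -0.46, Atp2a3 0.80, Slc8a2 0.22, Slc8a3 0.43, Slc4a2 -0.38, Slc4a4 -0.39, Slc12a2 -0.34 and Clcn6 -0.29 at 7 h, and Atp1b3 was -0.29, Atp2a1 0.29, Slc4a2 -0.38, Slc12a2 -0.057 and Clcn6 -0.29 at 24 h. With the mean over a gene's probes, Atp2a2 was -0.16 and Slc12a5 0.14 at 7 h. With the slides of replicates 2 and 3 alone, an alternative chosen after seeing the data, Atp2b3 was 0.052, Slc8a1 0.079, Slc8a2 0.25, Slc4a3 0.15 and Clcn6 -0.059 at 7 h, and Atp1b2 was 0.14, Atp2a2 0.11, Slc4a2 -0.11, Slc4a4 0.014, Clcn4 0.067 and Clcn6 -0.11 at 24 h. Of the within-array changes, tested under alternatives chosen after seeing the data, Slc8a3 minus Slc8a1 at 7 h was 0.67 with normexp and Slc12a2 minus Slc12a5 at 7 h was -0.085 with the mean over a gene's probes.

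With 1 array left out in turn, the following estimates changed sign: Atp2b3 from -0.25 to 0.069 at 7 h, Slc8a1 from -0.18 to 0.024 at 7 h, Slc8a2 from -0.40 to 0.11 at 7 h, Slc4a3 from -0.12 to 0.094 at 7 h, Atp1b3 from -0.096 to 0.16 at 7 h, Clcn6 from -0.019 to 0.15 at 7 h, Slc4a4 from -0.0099 to 0.26 at 7 h, Atp2a2 from -0.15 to 0.029 at 24 h, Slc4a2 from -0.10 to 0.20 at 24 h, Atp1b2 from -0.56 to 0.19 at 24 h, Slc4a4 from -1.53 to 0.074 at 24 h, Clcn4 from -1.22 to 0.034 at 24 h, Clcn6 from -0.11 to 0.24 at 24 h and Atp1b3 from -0.12 to 0.34 at 24 h. The direction of Slc8a3, Slc8a1, Slc8a2, Slc12a5, Slc12a7, Slc4a7 and Clcn7 at the times called or at p under 0.05 did not change with any array left out. Dimness limits Atp1a4, Atp1b4, Slc4a9, Atp2a3 and Atp2a1.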
